A study of Rattus norvegicus with 12 samples.

Results

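In the CA1 pyramidal layer of 3 control and 3 epileptic rats, 61 genes had more RNA in the superficial than in the deep sublayer in every animal. The members were chosen by these same superficial minus deep differences and by their mean level. Counts were scaled to CPM, the count of a gene relative to all gene counts of its library, with 2 very abundant identifiers left out of the total. A gene was kept where its mean over the 12 libraries was at least 5 CPM and superficial minus deep was at least 0.3 on the log2(CPM + 1) scale in each of the 6 animals. Of 32662 gene identifiers counted, 10923 reached the mean CPM minimum, and 61 of these met the rule (0.558%). The same rule with the opposite sign gave 100 genes higher in the deep sublayer.

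The animals were adult male Wistar rats, labelled as 45 to 50 days old and 180 to 200 g. This label is not read here as the age at sampling, which came 6 to 8 weeks after status. Epileptic rats had been injected with kainate, an agonist of ionotropic glutamate receptors, at 5 mg/kg per injection, repeated until status epilepticus began. The seizures were later stopped with diazepam at 4 mg/kg, and RNA was taken in the chronic phase, 6 to 8 weeks after status. Vehicle (saline or DMSO) was injected in the control rats, which were otherwise treated alike and had no seizures. Seizures of epileptic rats were seen during handling, or recorded in a subset of them, and the labels do not say which. Deep and superficial cell bodies were cut by laser microdissection from 20 µm sections of the same brains, so the 12 libraries form 4 groups of 3: control deep, control superficial, epileptic deep and epileptic superficial.

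The pyramidal layer of CA1 is not uniform. Deep cells lie towards the stratum oriens and superficial cells towards the stratum radiatum, and superficial cells are born later, are packed more tightly and often contain the calcium-binding protein calbindin. In the kainate model the hippocampus is a main site of chronic seizures, of neuron loss and of glial reaction. The count files give Ensembl identifiers without gene names, and the gene table at hand has no Ensembl identifiers, so none of them could be given a symbol (0 matched). No function is therefore given for a gene here, the tissue label could not be checked against marker genes, and at most 2 identifiers per direction are named in each comparison. In these bulk samples, fewer cells of a type and less RNA per cell cannot be told apart.

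The libraries held 16135358 to 25893962 gene counts, of which 13585443 to 19890353 remained without the 2 identifiers. The smallest count of any member in any library was 9, the median over members of their smallest count was 259, and 18 of the 61 had a smallest count under 100. The share of alignments in no annotated feature was 35.8 to 44.0% in the control libraries, 43.0 and 37.7% in the deep and superficial libraries of epileptic animal 1, and 22.3 to 26.7% in those of epileptic animals 2 and 3. Libraries of epileptic animals 2 and 3 thus stood apart from the other 8 in this measure.

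The superficial excess of the 61 genes was moderate and did not reach a mean of 2-fold on the log2(CPM + 1) scale. The pseudocount of 1 lowers these values, so the limit of 2-fold holds on that scale only. Mean differences over the 6 animals ran from 0.36 to 0.99 on the log2(CPM + 1) scale, with a median of 0.61, which corresponds to 1.53-fold. A mean difference of at least 0.75 was found for 16 members, one of at least 0.5 but under 0.75 for 29, and a smaller one for 16. The log2(CPM + 1) scale understates the difference of weakly counted genes. These values chose the members and are given as a description, without a test. The 5 members nearest to the threshold had a smallest difference of 0.303 to 0.310, and the 5 genes just outside it had 0.280 to 0.298.

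**Figure D1:**
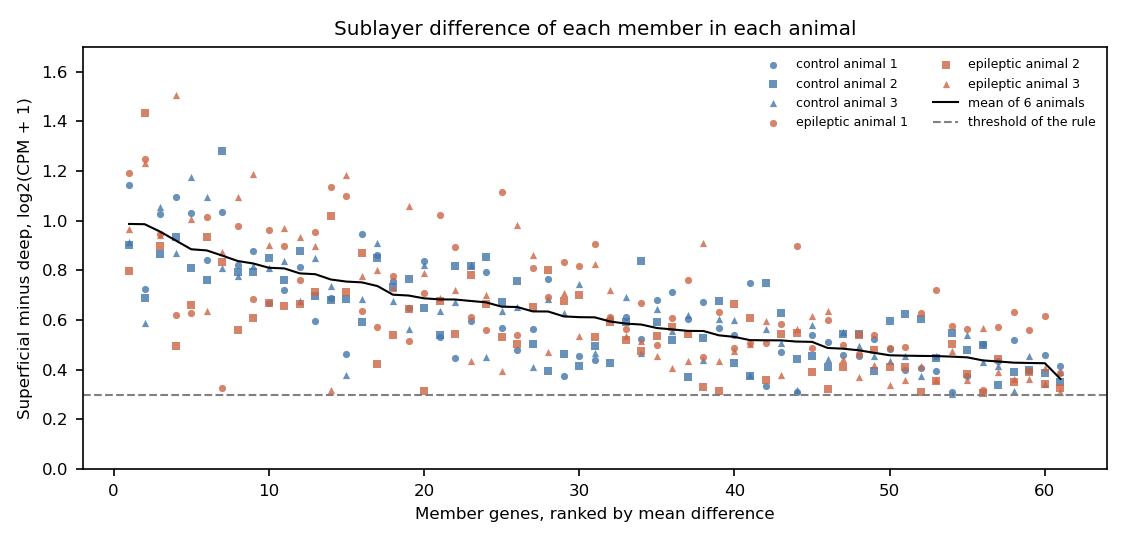
Superficial minus deep level of each of the 61 members in each of the 6 animals, on the log2(CPM + 1) scale, with members ranked by their mean (black line). All points lie above the threshold of 0.3 because the rule required it, and the means run from 0.99 down to 0.36.

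ENSRNOG00000025115 had the largest mean difference, 0.99 ± 0.15 (SD, n = 6). Its deep level was 9.01, 10.4 and 7.07 CPM in the 3 controls, given here and below in the order of their numbers, and 8.10, 10.01 and 4.04 CPM among the epileptic rats. Its superficial level was 21.1, 20.4 and 14.2 CPM in the controls and 19.8, 18.1 and 8.87 CPM in the epileptic animals. Each superficial level was about double the deep level of the same animal, and epileptic animal 3 was low in both sublayers, so that its superficial value fell within the range of the deep values.

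ENSRNOG00000012094 had the same mean difference, 0.99, with a larger spread of 0.36 (SD, n = 6). In the control animals its deep level was 22.0, 22.8 and 29.9 CPM and its superficial level 37.1, 37.3 and 45.5 CPM. Among the epileptic animals its deep level was 6.33, 10.6 and 13.7 CPM and its superficial level 16.4, 30.4 and 33.7 CPM. All epileptic libraries were below all control libraries of their sublayer, and the deep ones were the further below.

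Members with many counts could meet the rule with a small but even difference. ENSRNOG00000009862 had the highest mean of the members, 663 CPM, which is not corrected for gene length. Its deep level was 606, 611 and 609 CPM in control and 611, 551 and 490 CPM in epileptic animals. Its superficial level was 809, 778 and 799 CPM in control and 799, 691 and 608 CPM in epileptic animals. The mean difference was 0.36 ± 0.04 (SD, n = 6), the smallest mean and the smallest spread of the 61, and in the controls the sublayers were far apart compared with the spread of either.

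ENSRNOG00000003741, with a mean of 298 CPM, had 250, 222 and 238 CPM in deep and 371, 356 and 363 CPM in superficial control libraries. Epileptic animals 1, 2 and 3 had 294, 242 and 208 CPM in deep and 456, 301 and 281 CPM in superficial libraries. The control differences of 0.57, 0.68 and 0.60 lay close together, whereas the epileptic differences of 0.63, 0.31 and 0.43 did not. ENSRNOG00000023935 had the next smallest spread after ENSRNOG00000009862, with a difference of 0.48 ± 0.06 (SD, n = 6) at a mean of 52.1 CPM. At the other end, ENSRNOG00000018808 had the widest spread, 0.92 ± 0.36 (SD, n = 6). Control animals had differences of 1.10, 0.94 and 0.87 and epileptic animals of 0.62, 0.49 and 1.51, of which epileptic animal 3 stood highest and the other 2 lowest.

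**Figure D2:**
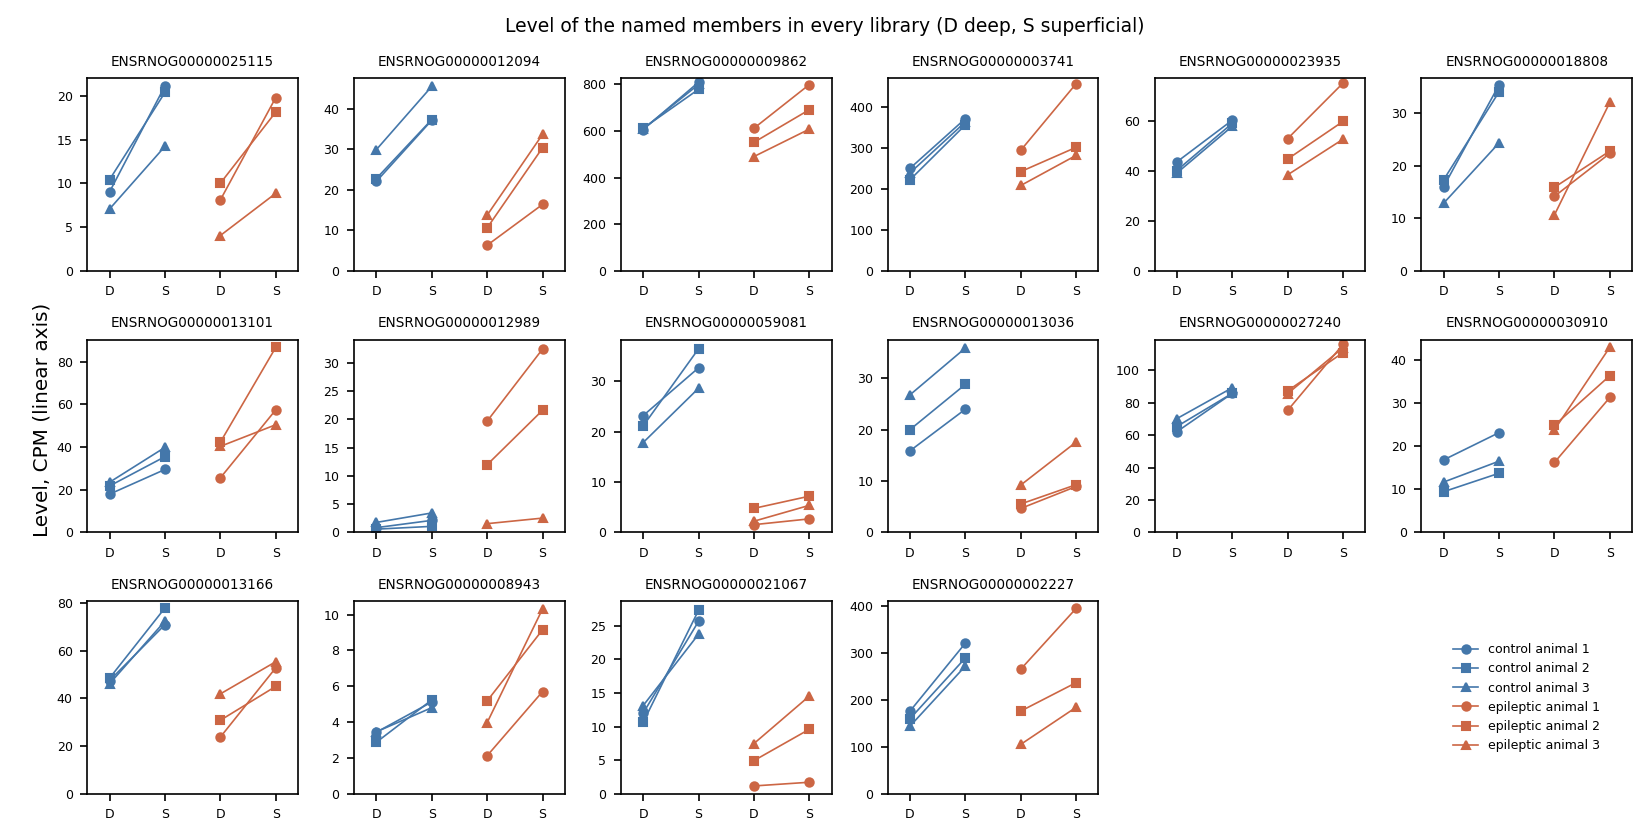
Level of the 16 named members in CPM (linear axis from 0), with a line joining the deep (D) and superficial (S) library of each animal, blue for control and orange for epileptic animals. The lines rise from D to S in every animal, as the rule required, while the height of the orange lines varies between animals, for example from 1.55 to 19.7 CPM in deep libraries for ENSRNOG00000012989.

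The excess had a similar size in every animal, which the rule favoured by requiring at least 0.3 in each, so this is a description. Median differences of the members were 0.57, 0.60 and 0.60 in the 3 controls, in the order of their numbers, and 0.63, 0.54 and 0.60 among the epileptic rats, beside medians of −0.03 to 0.03 over all genes that reached the mean CPM minimum. Summed over the members, levels were 2896 ± 65.0 CPM in deep and 4286 ± 91.8 CPM in superficial control libraries, and 2825 ± 304 CPM in deep and 4102 ± 506 CPM in superficial epileptic libraries (SD, n = 3 each). The ratio of the summed superficial to the summed deep level was 1.48, 1.49 and 1.48 in the controls and 1.52, 1.39 and 1.45 in the epileptic animals. Epileptic animal 2 had the lowest ratio. It also gave the smallest of the 6 differences for 20 members and the largest for 3, whereas epileptic animal 1 gave the smallest for 3 and the largest for 22.

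The same values were also compared without regard to the animal, as a description, since the rule used them. For 55 of the 61 members all 3 superficial control libraries were above all 3 deep control libraries (9.66% of all genes at the mean CPM minimum), and among the epileptic libraries this held for 30 (5.3%). Over all 12 libraries it held for 20 (0.824%). How far the level itself varied between animals, which the rule did not use, is described further on.

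Since the rule used all 6 animals, it was also applied to fewer of them and read in the animals it had not used, a check added after the data were seen. Applied to 5 animals, it chose 63 to 78 genes. In the animal left out, at least 0.3 was reached by 62 of 68 genes for control animal 1 (91.2%), 62 of 69 for control animal 2 and 62 of 69 for control animal 3 (89.9% each). For the epileptic animals it was 61 of 63 in animal 1 (96.8%), 60 of 78 in animal 2 (76.9%) and 61 of 73 in animal 3 (83.6%). Over all genes at the mean CPM minimum, 3.19 to 10.2% reached 0.3 in these animals. Each choice held 60 or 61 of the 61 members, so the numbers reaching 0.3 largely restate the rule. The shares differ by how many further genes were chosen. Median differences of the chosen genes in the animal left out were 0.54, 0.59 and 0.57 in the controls and 0.62, 0.49 and 0.50 in the epileptic animals.

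Chosen in the 3 control animals alone, 115 genes met the rule, and 59 of them (51.3%) had at least 0.3 in each of the 3 epileptic animals, compared with 0.936% of all genes at the mean CPM minimum. A difference above 0 in each epileptic animal was found for 104 of the 115 (90.4%), compared with 23.1% of all. Chosen in the 3 epileptic animals alone, 122 genes met the rule, of which 61 (50.0%) had at least 0.3 in each control animal, compared with 1.03% of all. Above 0 in each control animal were 99 of the 122 (81.1%), compared with 21.8% of all. The median of the mean difference was 0.51 in the controls that chose the 115 genes and 0.46 in the epileptic animals that did not, and 0.56 in the epileptic animals that chose the 122 genes and 0.43 in the controls.

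**Figure D3:**
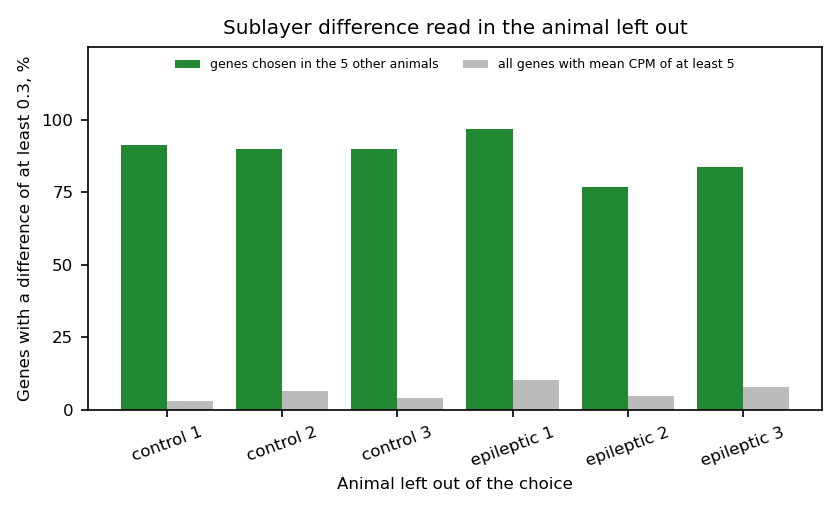
Share of genes with a superficial minus deep difference of at least 0.3 in the animal left out of the choice, for genes chosen in the 5 other animals (green) and for all genes with a mean of at least 5 CPM (grey). The green bars run from 76.9% in epileptic animal 2 to 96.8% in epileptic animal 1, and the grey bars from 3.19 to 10.2%.

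Whether the sublayer difference itself was altered in epilepsy was described from the same values. The rule kept only genes of at least 0.3 in both conditions, so this is not independent of the choice. Mean differences were larger in the epileptic animals for 32 members and smaller for 29, with a median shift of 0.02, the same as over all genes at the mean CPM minimum (0.02). The 3 epileptic differences lay above the 3 control differences for 7 of 61 members, where the share over all 14789 genes tested was 7.32%, and below them for 3, where that share was 3.88%. In the edgeR quasi-likelihood test with a term for each animal, no member had an adjusted p below 0.05 for this change, nor did any other of the 14791 genes (0%). An unadjusted p below 0.05 was found for 3 members with a larger difference in epilepsy (4.04% of all genes tested) and 2 with a smaller one (2.56%). At the same threshold 0 members were called by DESeq2 (0.0135% of all genes) and 2 by limma-voom, run with sample quality weights (0.717%).

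The largest shift of the sublayer difference was that of ENSRNOG00000012094. The difference was 0.73, 0.69 and 0.59 in control and 1.25, 1.43 and 1.23 in epileptic animals, and the 2 ranges were well apart. The fitted change was 0.67 (log2, SE 0.12, adjusted p = 0.131 in edgeR). ENSRNOG00000008943, with a mean of 5.12 CPM close to the minimum of the rule, had differences of 0.46, 0.69 and 0.38 in control and 1.10, 0.71 and 1.19 in epileptic animals, which did not overlap either. Its fitted change was 0.49 (log2, SE 0.24, adjusted p = 0.766 in edgeR). It reached the mean CPM minimum through the epileptic libraries, with a mean of 4.16 CPM in the control and 6.08 CPM in the epileptic libraries, so the choice favoured a high epileptic level. In all, 3 members had a mean under 5 CPM in the control libraries and 1 in the epileptic libraries.

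In the other direction, ENSRNOG00000002227 had differences of 0.86, 0.85 and 0.91 in control and 0.57, 0.42 and 0.80 in epileptic animals. Its fitted change was −0.31 (log2, SE 0.08, adjusted p = 0.360 in edgeR). ENSRNOG00000021067 had the largest shift downwards, with differences of 1.03, 1.28 and 0.81 in control and 0.32, 0.83 and 0.87 in epileptic animals. These ranges overlapped, and epileptic animal 1, with 1.18 CPM in deep and 1.73 CPM in superficial cells, was so low that the pseudocount of 1 holds its difference down. The fitted change without that pseudocount was −0.24 (log2, SE 0.18, adjusted p = 0.868 in edgeR). Over the alternatives the adjusted p of ENSRNOG00000012094 ran from 0.0003365 to 0.9999 and that of ENSRNOG00000002227 from 0.01248 to 0.9999.

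The comparison of epileptic with control levels within each sublayer was not used by the rule. Its mean CPM minimum could still admit a gene through the libraries of a single condition. The comparison was tested on the whole table, 3 animals against 3, so that the p-values rest on the spread between animals. In deep CA1, 0 of 61 members passed edgeR's quasi-likelihood test after Benjamini-Hochberg adjustment over 14261 genes, of which none passed (0%). In superficial CA1, 0 of 61 members passed over 14321 genes, of which 2 passed (0.014%). The median log2 fold change of epileptic against control was −0.0089 in deep and −0.06 in superficial CA1 for the members, beside 0.00093 and 0.0068 for all genes tested. For most members the groups were close, and the fitted log2 fold change was within 0.5 of 0 for 42 members in deep and 44 in superficial CA1. At least 2-fold lower fitted levels were found for 5 members in deep and 4 in superficial CA1, and at least 2-fold higher ones for 2 in each. The shares over all genes were not counted at these limits, so the counts do not set the members apart. They include ENSRNOG00000059081 and ENSRNOG00000012989, which reached the mean CPM minimum through libraries of a single condition.

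At an unadjusted p below 0.05, 8 members were higher in epileptic deep libraries (8.22% of all genes tested) and 11 lower (5.43%). In superficial libraries 7 were higher (10.2%) and 9 lower (8.76%). The 3 epileptic libraries lay below the 3 control libraries for 14 of 61 members in deep CA1, against 8.61% of all 14259 genes compared, and above them for 2, against 9.71%. In superficial CA1 they lay below for 9 members, against 11.1% of all 14319 genes, and above for 4, against 12.9%. Of these, 9 members were below in both sublayers and 2 above in both, against 4.49 and 4.96% of the 14083 genes tested in both. With TMM-scaled CPM the member counts per sublayer stayed the same. Among genes of at least 5 such CPM, 11.0% lay below and 7.51% above in deep CA1. In superficial CA1 it was 17.2% below and 8.05% above. The 14.8% of members below in superficial CA1 thus exceeded the share over all genes with 1 scaling only. The 100 genes higher in the deep sublayer by the same rule had 9 below and 23 above in deep CA1, and 9 below and 25 above in superficial CA1.

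An alternative fit had the replicate number as a block, although it joins different animals of the 2 conditions. For this reason the main fit had no block. Deviations of same-numbered libraries correlated at 0.283, 0.179 and 0.363 in deep and at 0.292, −0.03 and 0.216 in superficial CA1. With the block, 239 genes passed in deep CA1 (1.68%), with 165 higher and 74 lower in epileptic rats. The 6 members among them were 1 higher and 5 lower. Without epileptic animal 1, 8 members passed in deep (3.82% of all genes) and 16 in superficial CA1 (9.96%), and without epileptic animal 3 there were 10 (1.91%) and 12 (2.84%). The number of members called by DESeq2 was 6 in deep (2.64% of all genes) and 9 in superficial CA1 (6.18%), and by limma-voom 22 (14.9%) and 16 (12.2%). Taking the share of alignments in no feature as a covariate gave 8 members in deep, 1 higher and 7 lower in epileptic rats, among 99 genes (0.694%), of which 50 were higher and 49 lower. In superficial CA1 it gave 1 member among 5 genes (0.0349%). The share was 43.0% in the deep library of epileptic animal 1, within the control range of 40.4 to 44.0%. In the deep libraries of animals 2 and 3 it was 26.7 and 22.3%. The covariate thus largely separated animals 2 and 3 from the other libraries, and the condition term leaned on animal 1.

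**Figure D4:**
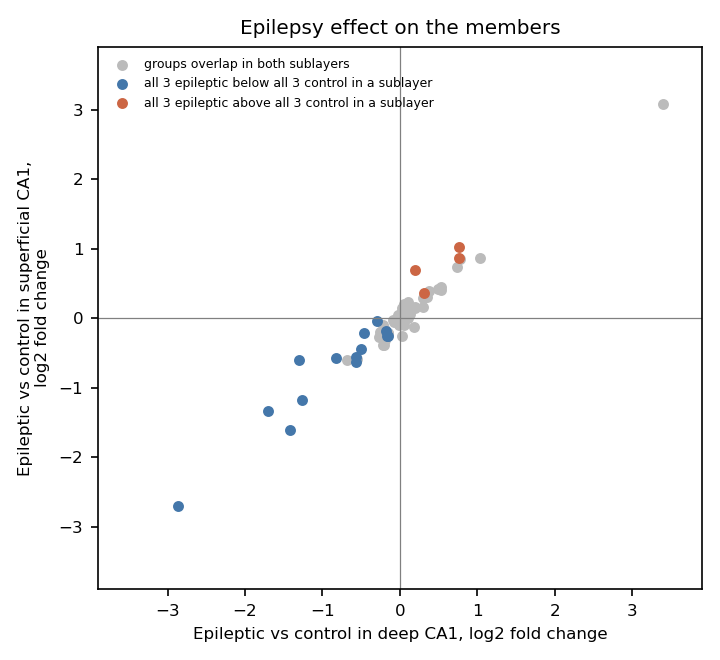
Log2 fold change of epileptic against control rats in deep (x axis) and superficial CA1 (y axis) for the 61 members, coloured by whether the 3 epileptic libraries lay apart from the 3 control libraries in at least 1 sublayer. Most members lie near 0, 14 are marked below and 4 above, and ENSRNOG00000059081 (lower left) and ENSRNOG00000012989 (upper right) lie furthest out; both sublayers come from the same animals.

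The lowest fold change of the members was that of ENSRNOG00000059081. It had 23.2, 21.1 and 17.8 CPM in deep control libraries and 1.54, 4.77 and 2.22 CPM in deep epileptic libraries. In superficial libraries it had 32.6, 36.4 and 28.6 CPM in control and 2.69, 7.19 and 5.37 CPM in epileptic animals. Every epileptic value was well below every control value, in both sublayers. Its mean was 20.7 CPM in deep and 32.5 CPM in superficial control libraries, against 2.84 and 5.08 CPM in epileptic ones. It thus reached the mean CPM minimum through the control libraries, so the choice favoured a high control level. The log2 fold change was −2.87 (SE 0.35, adjusted p = 0.0519) in deep and −2.71 (SE 0.32, adjusted p = 0.0582) in superficial CA1, just outside the threshold of edgeR's test. Leaving out 1 library or changing the test gave values of −3.48 to −2.49 in deep and −3.62 to −2.40 in superficial CA1, with adjusted p between 2.883e-13 and 0.3269 in deep and between 5.272e-16 and 0.3742 in superficial CA1. With the replicate number as a block it passed in deep CA1, as did ENSRNOG00000013036 and ENSRNOG00000013101, 2 further members given next.

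ENSRNOG00000013036 had 15.9, 20.0 and 26.8 CPM in deep control and 4.67, 5.54 and 9.23 CPM in deep epileptic libraries. Its superficial level was 24.0, 28.8 and 35.9 CPM in control and 8.95, 9.30 and 17.6 CPM in epileptic animals. The epileptic values lay below the control values in both sublayers, and the log2 fold change in deep CA1 was −1.71 (SE 0.27, adjusted p = 0.0732 in edgeR).

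In superficial CA1, the member with the next smallest p among those with lower fitted levels was ENSRNOG00000013166. It had 70.8, 77.8 and 72.3 CPM in superficial control and 52.8, 45.0 and 55.3 CPM in superficial epileptic libraries, which did not overlap. The fitted log2 change was −0.56 (SE 0.10, adjusted p = 0.0817 in edgeR). Its deep level was 47.4, 48.4 and 46.1 CPM in control and 23.8, 30.8 and 41.8 CPM in epileptic animals.

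Among members with higher fitted levels in epilepsy, ENSRNOG00000012989 had the largest fold change and the least even one. Control levels were 0.843, 0.576 and 1.77 CPM in deep and 2.13, 1.07 and 3.44 CPM in superficial libraries. Epileptic animals 1, 2 and 3 had 19.7, 11.98 and 1.55 CPM in deep and 32.4, 21.6 and 2.53 CPM in superficial libraries. Animals 1 and 2 were far above the controls, while animal 3 lay within the control range in both sublayers, and the log2 fold change of 3.39 in deep CA1 had an SE of 0.87 and did not pass (adjusted p = 0.211 in edgeR). It reached the mean CPM minimum through the libraries of epileptic animals 1 and 2.

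ENSRNOG00000013101 had 17.9, 21.7 and 23.5 CPM in deep control and 25.6, 42.3 and 40.3 CPM in deep epileptic libraries. Its superficial level was 29.5, 35.5 and 39.8 CPM in control and 57.4, 86.7 and 50.4 CPM in epileptic animals. The epileptic values were above the control values in both sublayers, and the fitted log2 change in deep CA1 was 0.76 (SE 0.19, adjusted p = 0.191 in edgeR). It passed in 4 of 13 alternatives, over which the change ran from 0.31 to 1.01. The lowest change came with the share of alignments in no feature as a covariate (adjusted p = 0.547 in edgeR).

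In superficial CA1, ENSRNOG00000027240 was even within groups, with 85.7, 85.8 and 89.2 CPM in control and 116, 111 and 114 CPM in epileptic animals. The groups did not overlap, and the log2 fold change was 0.36 (SE 0.07, adjusted p = 0.0978 in edgeR). ENSRNOG00000030910 had 23.2, 13.8 and 16.6 CPM in superficial control and 31.4, 36.4 and 43.1 CPM in superficial epileptic libraries, again without overlap. Its log2 fold change was 1.02 (SE 0.20, adjusted p = 0.0982 in edgeR). Its deep level was 16.9, 9.46 and 11.7 CPM in control and 16.3, 24.9 and 23.9 CPM in epileptic animals, which overlapped. The log2 fold change in deep CA1 was 0.76 (SE 0.23, adjusted p = 0.243 in edgeR).

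The level of many members differed widely between the epileptic animals. The coefficient of variation (CV, the SD over the mean of 3 animals) had a median of 10.5% in deep and 10.7% in superficial control libraries over the members, and of 21.4% in deep and 22.4% in superficial epileptic libraries. Over all genes at the mean CPM minimum the medians were 7.39, 7.01, 11.9 and 10.6% in the same order. A CV above 30% was found for 20 members in deep and for 20 in superficial epileptic libraries, where 8.00 and 9.52% of all genes had one, and for 2 and 1 members in control libraries. The CV was higher in epileptic than in control libraries for 52 members in deep (85.2%, against 72.3% of all genes) and 47 in superficial CA1 (77.0%, against 70.0%). For the 100 genes higher in the deep sublayer the median CV was 9.74% in deep and 13.7% in superficial control libraries and 16.2% and 15.8% in epileptic ones. None of these differences between gene groups was tested, and libraries of epileptic animals 2 and 3 also differed in the share of alignments in no feature, whose part in the spread was not tested.

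**Figure D5:**
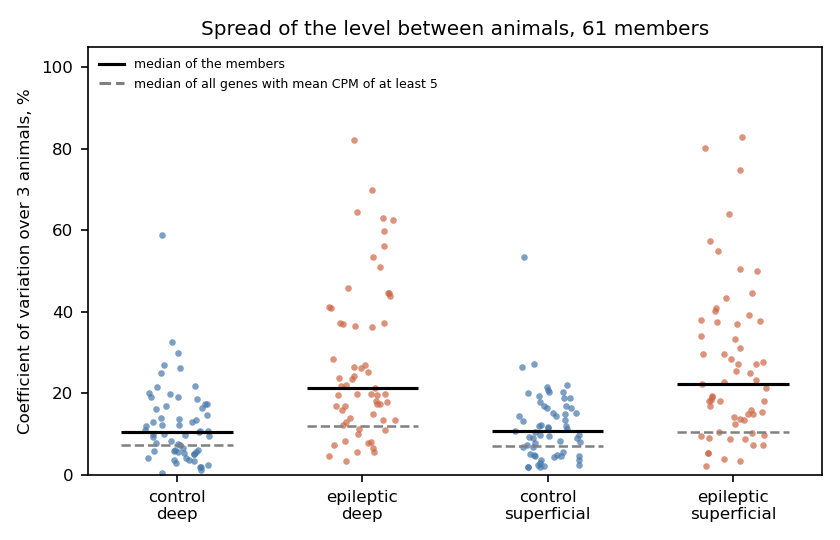
Coefficient of variation of the level over the 3 animals of each group, 1 point per member, with the median of the members (black line) and of all genes with a mean of at least 5 CPM (grey dashed line). The median of the members is 10.5 and 10.7% in control and 21.4 and 22.4% in epileptic libraries.

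The 3 epileptic animals departed from the controls in different ways. Relative to the mean of the control libraries on the log2(CPM + 1) scale, 8 members were at least 2-fold lower in animal 1 in deep and 8 in superficial libraries, where 0.421 and 0.549% of all genes were. In animal 2 there were 5 and 4 such members (0.201 and 0.265% of all genes), and in animal 3 there were 3 and 2 (0.357 and 0.220%). At least 2-fold higher were 2 and 2 members in animal 1 (0.485 and 0.513%), 4 and 6 in animal 2 (1.25 and 2.00%) and 0 and 3 in animal 3 (2.77 and 5.18%). Members at least 2-fold lower were thus most numerous in animal 1. In animal 3, the members were mostly a little lower, with a median shift of −0.18 in deep and −0.21 in superficial libraries, and 33 and 32 of the 61 had their lowest epileptic level there (40.4 and 34.9% of all genes).

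The order of the epileptic animals differed between members. The lowest epileptic level was in animal 1 for 22 members in deep and 19 in superficial libraries (36.0 and 38.5% of all genes), fewer than in animal 3. These counts were near the share over all genes in deep and under it in superficial libraries. ENSRNOG00000021067 was one of those lowest in animal 1. Its superficial level was 25.6, 27.3 and 23.7 CPM in the controls, against 1.73, 9.60 and 14.5 CPM in the epileptic rats, and its deep level was 11.998, 10.6 and 13.1 CPM in control and 1.18, 4.95 and 7.48 CPM in epileptic animals. All epileptic values were below the control values, and animal 1 was the lowest in both sublayers. The log2 fold change was −1.41 (SE 0.49, adjusted p = 0.281) in deep and −1.61 (SE 0.65, adjusted p = 0.268) in superficial CA1 in edgeR's test. In contrast, ENSRNOG00000002227 had 396, 237 and 185 CPM in superficial libraries of epileptic animals 1, 2 and 3, around the 321, 290 and 273 CPM of the control animals, and animal 1 was the highest.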

How the data were processed

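RNA of laser-microdissected deep and superficial CA1 was sequenced in 12 libraries from 6 rats. The authors deposited raw counts per Ensembl gene for each library, and HTSeq 0.6.1, STAR 2.5.0c, FastQC 0.11.3, SAMtools 0.1.19 and build Rnor_6.0 are listed in the submitters' processing notes. Annotation release and strand setting are not given in the sources used here. Overlapping, antisense or near-identical genes may therefore share reads. The 5 summary tallies per file entered no library size and no main test. They entered only the alternative with the share of alignments in no feature as a covariate. They held 22.3 to 44.0% of alignments in no feature, 25.2 to 45.6% not unique and 0.207 to 0.300% ambiguous.

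Members were found as stated in the opening, with a pseudocount of 1. Members and lists were chosen with earlier results of these data known. The marker, family and promoter lists could not be applied without gene names. Named members are those with the largest mean difference, the highest mean CPM, the smallest and largest spread, the smallest p of each epilepsy test and the largest change of the sublayer difference, at most 2 in each direction, as symbols were lacking.

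The 6 deep libraries, and apart from them the 6 superficial ones, were tested for epilepsy in R 4.3.3 with edgeR 4.0.16 (filterByExpr, minimum count 10 and minimum total 15, TMM scaling, robust quasi-likelihood test, Benjamini-Hochberg threshold 0.05). The change of the sublayer difference was tested over all 12, each animal having its own term. The printed SE is the absolute log2 fold change divided by the square root of F, an approximation. DESeq2 1.42.0 and limma 3.58.1 were alternatives. Tests were checked on simulated counts. Sublayers were paired by condition and replicate number. Deviations of the 2 libraries of an animal correlated at 0.452 to 0.833. Between conditions the same number marks different animals, and the deviations of same-numbered superficial libraries correlated at 0.292, −0.0304 and 0.216. No libraries of a group were duplicates (chi-square per gene 7.29 to 124).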

Additional observations from a re-analysis of the deposited data

Results flagged for a closer look

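The 2 identifiers left out of the library total of the rule, ENSRNOG00000043866 and ENSRNOG00000030478, are outside the CPM values above. The main tests kept them, among the genes tested and in the library sizes. Their share of the gene counts was higher in all epileptic than in all control libraries of each sublayer. In deep libraries they held 25.3% ± 4.93 of the gene counts in epileptic and 15.7% ± 0.838 in control rats (SD, n = 3 each). In superficial libraries they held 20.5% ± 6.27 in epileptic and 11.8% ± 0.891 in control rats (SD, n = 3 each). The ranges were 19.6 to 28.5% against 14.7 to 16.4% in deep, and 13.3 to 24.97% against 11.1 to 12.8% in superficial libraries.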

How the results depend on the processing

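The number of genes that met the rule was 126 with a least difference of 0.2, 31 with 0.4 and 92 with the sum of all gene rows as library size. It was 115 in the control and 122 in the epileptic animals alone, fewer animals having to meet it, and 63 to 78 without 1 animal. With TMM-scaled library sizes 64 genes met it, 56 of them among the 61. In deep CA1, where edgeR called 0 genes and 0 members, it called 8 and 1 with RLE size factors, 8 and 1 with library sizes without the 2 identifiers, 103 and 2 with no low-count filter, 239 and 6 with the replicate block and 99 and 8 with the share of alignments in no feature as a covariate. DESeq2 called 376 and 6, limma-voom with quality weights 2125 and 22, and leaving out 1 library gave 0 to 552 genes and 0 to 10 members, with 0 without any 1 control library. In superficial CA1, where edgeR called 2 genes and 0 members, it called 130 and 2 with no low-count filter, 25 and 2 with the replicate block and 5 and 1 with the covariate. DESeq2 called 885 and 9, limma-voom 1746 and 16, and leaving out 1 library gave 0 to 1443 genes and 0 to 16 members. For the change of the sublayer difference, 178 genes and 2 members were called with no low-count filter, 2 genes by DESeq2, 106 genes and 2 members by limma-voom, 0 with no replicate block, and 0 to 84 genes and 0 to 1 member without 1 animal. The cause of these shifts in the test counts was not tested. Of the 16 named members, 11 were followed in the test of their comparison and kept their sign under all its alternatives. They had been named for a small p or a large change of the sublayer difference, which favours a kept sign. The other 5 were not followed. Depth limits the precision of the 18 members with a smallest count under 100 more than that of the others.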
